A study of Mus musculus with 8 samples.

Results

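The 8 genes described here encode the non-collagen matrix and regulators of cartilage: Cnmd, Matn4, Acan, Matn1, Matn3, Comp, Sox9 and Hapln1. They were chosen by their signal in each genotype on these same arrays, so levels between genotypes are a description, with no test. Every probe set annotated to only 1 of them was taken, which gave 11 probe sets among 22626 and 8 genes among 12393. Affymetrix arrays had been hybridised with RNA of embryonic fibroblasts of mice, mesenchymal cells grown out from embryos, of mixed C57BL/6 x 129Ola background. The fibroblasts were Ikbke-/- (Tbk1+/+ Ikbke-/-), Tbk1-/- (Tbk1-/- Ikbke+/+), Tbk1-/- Ikbke-/-, or wild type (WT, Tbk1+/+ Ikbke+/+). Ikbke and Tbk1 are related kinases of the interferon response. Each genotype received B-DNA (poly(dA-dT)-poly(dT-dA), double-stranded DNA made only of A and T) or a mock transfection for 4 h, with 1 array per genotype and treatment. Nothing in the labels says how many embryos or cultures stand behind a genotype, so genotype and culture cannot be told apart in any level given below.

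Chondrocytes, the cells of cartilage, secrete a matrix in which a proteoglycan gel is held by collagen fibrils. Sox9 is the transcription factor that directs cells into this lineage and switches on many matrix genes. Aggrecan, the product of Acan, binds hyaluronan with the help of the link protein Hapln1, and matrilins and Comp bridge aggrecan and collagen. Embryonic fibroblast cultures are made from much of the body of an embryo and can hold cells of several mesenchymal lineages. In bulk RNA, fewer cells of a type and less RNA per cell cannot be told apart.

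The deposited signal was not on a common scale: its mean without the lowest and highest 2% of probe sets lay between 140 and 255, and every array was scaled to 500. Values under a floor of 122, the 40th percentile of all scaled values, were set to it before log2 was taken, have no order among themselves, and make a ratio a lower limit, written "at least". The counts below take a gene as higher or lower where the ratio was 2-fold or more and the larger signal reached 244. As checks of the labels, the brighter Tbk1 probe set had signals of 305 (B-DNA) and 226 (mock) in Tbk1-/- cells and of 390 and 290.0 in Tbk1-/- Ikbke-/- cells, against 910.0 and 472 for Ikbke-/- and 989 and 501 for WT cells. Ikbke did not reach the floor on any array, so it cannot check the labels. Xist, the RNA that silences an X chromosome in female cells, read 138 to 209 in the Ikbke-/- and Tbk1-/- Ikbke-/- cells, against 2950.1 to 3766 in Tbk1-/- and WT cells. Sex therefore cannot be told apart from Ikbke genotype. The part of sex in the levels below was not tested.

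Most of the cartilage genes were highest in Ikbke-/- cells. On both treatments, 6 of the 8 were 2-fold or more above WT cells, namely Cnmd, Matn4, Acan, Matn1, Matn3 and Sox9, and none was below. Only Acan and Sox9 reached 244 in WT cells, so no other gene could have been counted as below. Of 9626 genes that reached the floor on 1 or more arrays, 1.46% were higher and 1.81% lower by the same rule. For Cnmd, Matn4, Acan and Matn1, the lower Ikbke-/- array was also 2-fold or more above the highest of the other 6 arrays, as it was for 0.364% of the 9626 genes. The genes had been picked for this contrast, so nothing is read from these shares.

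The promoters of Cnmd, Matn4, Matn1 and Acan, the 4 genes whose signal in Ikbke-/- cells stood apart from all other arrays, are shown to compare the sequence before their starts. RefSeq (GRCm38.p6) gave promoters for 6 of the 8 genes, all but Comp and Sox9. Matn4 has a further start, which is not printed. Each line holds the 250 bases before the annotated start, 5′ to 3′ on the strand of the gene, and capitals mark CAAAG or its reverse complement CTTTG, the core of many SOX binding motifs.
Cnmd: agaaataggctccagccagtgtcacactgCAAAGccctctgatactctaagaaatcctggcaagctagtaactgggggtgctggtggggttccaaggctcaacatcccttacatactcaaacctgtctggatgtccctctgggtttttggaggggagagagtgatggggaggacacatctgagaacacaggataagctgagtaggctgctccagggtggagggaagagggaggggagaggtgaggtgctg
Matn4: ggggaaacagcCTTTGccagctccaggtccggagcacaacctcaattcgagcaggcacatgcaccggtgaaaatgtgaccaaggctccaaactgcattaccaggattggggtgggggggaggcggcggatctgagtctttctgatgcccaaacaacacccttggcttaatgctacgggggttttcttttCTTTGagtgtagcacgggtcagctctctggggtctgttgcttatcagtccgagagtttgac
Matn1: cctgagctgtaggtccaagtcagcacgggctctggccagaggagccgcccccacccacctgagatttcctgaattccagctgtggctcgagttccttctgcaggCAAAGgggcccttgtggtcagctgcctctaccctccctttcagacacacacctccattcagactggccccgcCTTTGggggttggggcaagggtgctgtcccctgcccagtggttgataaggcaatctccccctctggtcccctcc
Acan: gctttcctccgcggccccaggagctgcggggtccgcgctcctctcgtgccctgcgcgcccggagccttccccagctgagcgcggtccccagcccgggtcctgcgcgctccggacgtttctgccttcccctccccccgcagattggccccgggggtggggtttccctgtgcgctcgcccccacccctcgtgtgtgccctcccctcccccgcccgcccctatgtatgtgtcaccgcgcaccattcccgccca

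These stretches lie at chr14:79662184-79662433 (minus strand, Cnmd), chr2:164405161-164405410 (minus strand, Matn4), chr4:130944135-130944384 (plus strand, Matn1) and chr7:79052976-79053225 (plus strand, Acan). On either strand, CAAAG was found before 4 of the 6 genes (Cnmd, Matn4, Matn1 and Matn3), and 48.6% of 32851 RefSeq promoters of the same length hold it. For Matn4 it lies before the printed start only, and the further start has no match. A gene was counted if any of its starts had a match. The shares are of promoters, of which the 6 genes have 7. CAAAG was looked for after ACAAT (reverse complement ATTGT), another SOX core, had been found before 1 of the 6, Hapln1, against 27.7% of all promoters. The TATA box TATAAA was found before none of them, against 12.4%. A match of letters is not a binding site, and the SOX9 sites known from cartilage genes often lie in enhancers outside such windows.

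Cnmd encodes chondromodulin, a membrane glycoprotein of cartilage whose secreted part inhibits blood vessel growth. Its signal was 19434 after B-DNA and 18913 after mock transfection in Ikbke-/- cells, 2359 and 2434 for Tbk1-/- cells, 3.14 and 4.29 for Tbk1-/- Ikbke-/- cells, and 117 and 44.6 for WT cells. It was thus far above the floor in Ikbke-/- cells, clearly above it in Tbk1-/- cells, and under it on all 4 arrays of the other genotypes. Ikbke-/- cells were at least 159-fold (B-DNA) and 155-fold (mock) above WT cells, and 8.24-fold and 7.77-fold above Tbk1-/- cells. The order of the Tbk1-/- Ikbke-/- and WT values was not measured.

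Acan encodes aggrecan, the large chondroitin sulfate proteoglycan that lets cartilage hold water. Its signal was 4887 and 4651 in Ikbke-/- cells (B-DNA, then mock), 463 and 434 in Tbk1-/- cells, 116 and 136 in Tbk1-/- Ikbke-/- cells, and 795 and 1009.8 in WT cells. All 4 genotypes were separate for this gene, in the order Ikbke-/-, WT, Tbk1-/- and Tbk1-/- Ikbke-/-, and the 2 arrays of a genotype lay closer to each other than to any other array. Ikbke-/- cells were 6.15-fold and 4.61-fold above WT cells. Hapln1, whose protein locks aggrecan onto hyaluronan, lay under the floor with all 3 of its probe sets on all 8 arrays, at 106 or less. No level of Hapln1 was measured, and it could not enter any comparison.

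The matrilins are filament-forming adaptor proteins of the extracellular matrix. Matn1, the form most restricted to cartilage, read 1746 and 1497 in Ikbke-/- cells (B-DNA, then mock), and 13.5 to 48.4 on the other 6 arrays. It passed the floor in Ikbke-/- cells only, at least 14.3-fold and 12.3-fold above WT cells. Matn4 read 9343 and 7593 in Ikbke-/- cells, 70.0 and 81.0 for Tbk1-/- cells, 206 and 148 for Tbk1-/- Ikbke-/- cells, and 233 and 238 for WT cells. Ikbke-/- cells were 40.1-fold and 31.9-fold above WT cells, while Tbk1-/- cells were under the floor and at least 1.91-fold and 1.95-fold below WT cells. Tbk1-/- Ikbke-/- cells were 1.13-fold below WT cells after B-DNA and 1.60-fold after mock transfection, and their own 2 arrays differed by 0.47 on the log2 scale. Matn3, mutated in a form of human epiphyseal dysplasia, read 317 and 257 in Ikbke-/- cells and 103 to 139 on the other 6 arrays, which are values near the floor. Its Ikbke-/- signal was 2.29-fold and at least 2.10-fold that of WT cells.

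Comp encodes cartilage oligomeric matrix protein, a pentameric member of the thrombospondin family that is also made by tendon. It read 318 and 446 in Ikbke-/- cells (B-DNA, then mock), 80.9 and 30.001 in Tbk1-/- cells, 96.4 and 107 in Tbk1-/- Ikbke-/- cells, and 230.1 and 215 in WT cells. It was above the floor in Ikbke-/- and WT cells and under it in both genotypes without Tbk1. The Ikbke-/- signal was 1.38-fold (B-DNA) and 2.07-fold (mock) that of WT cells, so that Comp was not counted as higher.

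Sox9 had another order. Its brighter probe set read 678 and 999.9 in Ikbke-/- cells (B-DNA, then mock), 455 and 836 in Tbk1-/- cells, 227 and 244 in Tbk1-/- Ikbke-/- cells, and 277 and 271 in WT cells. Both Ikbke-/- and Tbk1-/- cells lay above the other 2 genotypes, and the ranges of Ikbke-/- and Tbk1-/- cells overlapped. Ikbke-/- cells were 2.45-fold and 3.70-fold above WT cells, and Tbk1-/- cells 1.64-fold and 3.09-fold. The other Sox9 probe set read 582 and 844 in Ikbke-/- cells, 492 and 770.2 for Tbk1-/- cells, 139 and 202 for Tbk1-/- Ikbke-/- cells, and 117 and 210.4 for WT cells. With that probe set Tbk1-/- cells were 2-fold or more above WT cells on both treatments, with log2 ratios of at least 2.01 (B-DNA) and of 1.87 (mock).

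**Figure D1:**
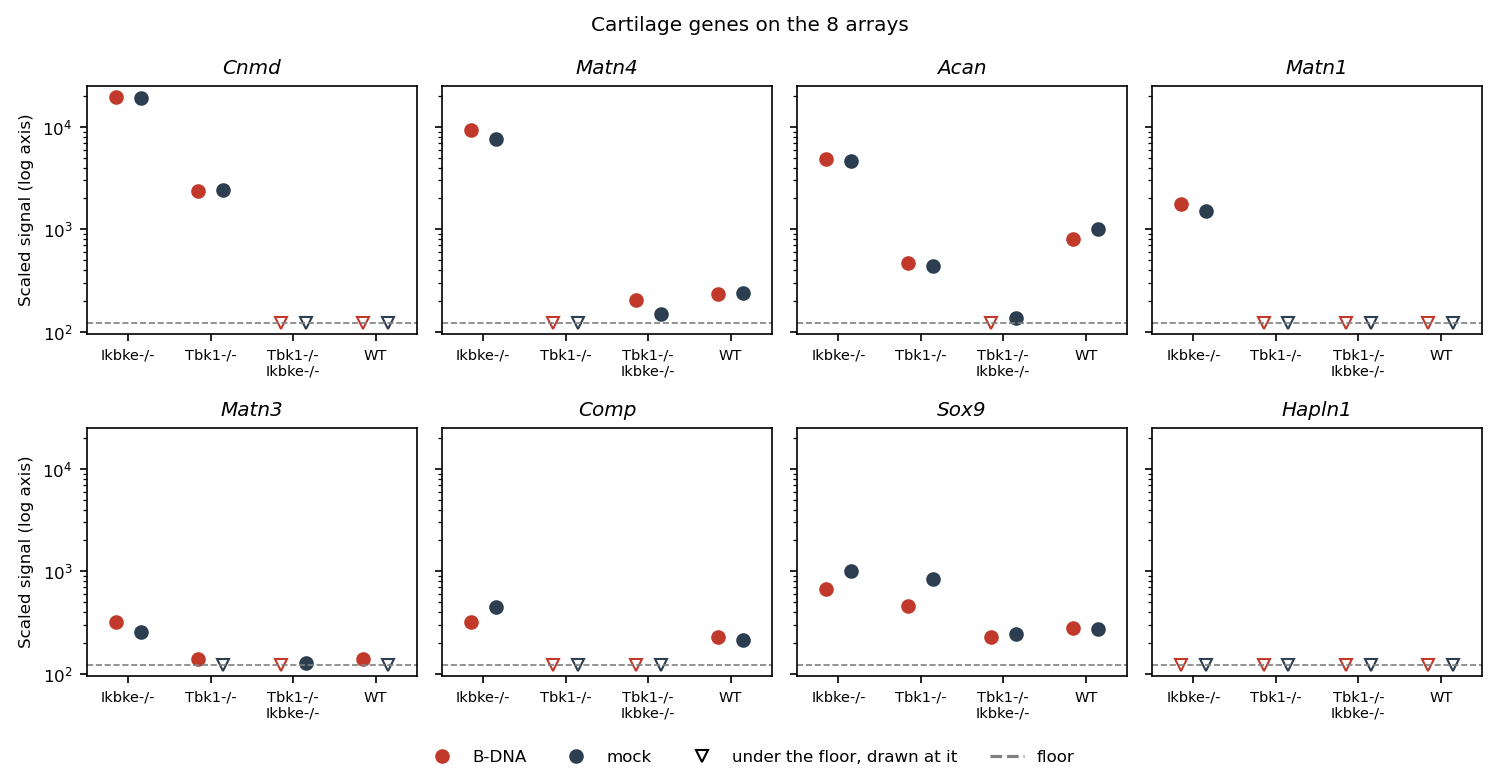
Scaled signal of the 8 cartilage genes (log axis) by genotype, with the B-DNA array in red left of the mock array in dark blue. Open triangles mark values under the floor of 122 (dashed line), drawn at the floor, and 1 point is 1 array. Cnmd, Matn4, Acan and Matn1 stand highest in Ikbke-/- cells, Cnmd and Sox9 are also high in Tbk1-/- cells, and Hapln1 lies under the floor everywhere.

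By the counting rule, the other genotypes differed from WT cells in few of these genes. A gene could be counted as lower only where its WT signal reached 244, which held for Acan and Sox9 alone. In Tbk1-/- cells, Cnmd was the only one of the 8 that was 2-fold or more higher on both treatments (at least 19.3-fold after B-DNA and 19.9-fold after mock transfection), and none was lower on both. Of all 9626 genes, 1.48% were higher and 1.86% lower by that rule. Acan was 1.72-fold (B-DNA) and 2.33-fold (mock) below WT cells. In Tbk1-/- Ikbke-/- cells none of the 8 was higher and Acan alone was lower, at least 6.51-fold after B-DNA and 7.41-fold after mock transfection, against 3.28% of all genes higher and 2.84% lower. Comp, which could not be counted, was at least 1.88-fold (B-DNA) and 1.76-fold (mock) below WT cells in both genotypes without Tbk1. WT cells also differed from the other genotypes in macrophage markers: of 11, 1 or 2 reached 244 on each of the 6 mutant arrays (summed signal 1124 to 1489), against 7 on the B-DNA and 9 on the mock array of WT cells (3853 and 12450.2). C1qa, a complement gene of macrophages, read 9.02 to 13.6 on the mutant arrays, against 303 and 1191 in WT cells. The part of these cells in the differences from WT was not tested.

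The difference between genotypes was larger than that between the 2 arrays of a genotype for every measured cartilage gene. The genes had been chosen by their signal in each genotype, which favours this outcome, so the spans are a description only. For Cnmd the genotype means spanned 7.29 on the log2 scale, against at most 0.05 between the B-DNA and mock arrays of Ikbke-/- and of Tbk1-/- cells, the only pairs above the floor. For Acan the span was 5.21 against 0.35, for Matn4 6.11 against 0.47 and for Matn1 3.73 against 0.22. The margins were narrower for Matn3 (1.19 against 0.30), Comp (1.62 against 0.49) and Sox9 (1.80 against 0.88). Pairs of arrays under the floor give no difference, which leaves Matn1 with its Ikbke-/- pair only, and spans that end there are lower limits. The 2 arrays of a genotype carry different treatments and are not replicates, and nothing says that they come from separate cultures.

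Cartilage collagens shared the Ikbke-/- pattern. Of 7 such genes tested, 5 were 2-fold or more above WT cells on both treatments and 1 was below, with a median log2 ratio of 2.88, against -0.05 over all 9626 genes. Col2a1, the main fibril collagen of cartilage, read 25950 and 23463 in Ikbke-/- cells (B-DNA, then mock), 5232 and 4891 in Tbk1-/- cells, 1047 and 1111 in Tbk1-/- Ikbke-/- cells, and 3516 and 3207 in WT cells. Col9a1, of the fibril surface, read 5292 and 4957 in Ikbke-/- cells and 84.4 to 170.1 on the other 6 arrays. Col11a2 and Col9a3 were higher as well, with mean log2 ratios over WT cells of 3.30 and 3.16 (both are lower limits, since Col9a3 in WT cells and Col11a2 on the WT B-DNA array lay under the floor). The gene that was lower was Col10a1, the collagen of hypertrophic chondrocytes. It read 61.1 and 23.4 in Ikbke-/- cells, against 619 and 590.3 in WT cells. In Tbk1-/- cells it read 21.0 and 18.8, and in Tbk1-/- Ikbke-/- cells 148 and 26.8. Col10a1 was thus high in WT cells only, and its low signal was not particular to Ikbke-/- cells.

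Other matrix genes were mixed. Of 12 tested in a list of further cartilage matrix genes, 4 were higher in Ikbke-/- than in WT cells on both treatments (Omd, Otor, Mia and Dcn) but none lower, and the list had a median log2 ratio of 0.50. Mia, a small secreted protein of cartilage and melanoma cells, read 2044 and 2005 in Ikbke-/- cells and 21.7 to 57.4 on the other 6 arrays. Omd, a keratan sulfate proteoglycan, read 3167 and 2319 in Ikbke-/- cells, at most 111 in Tbk1-/- and Tbk1-/- Ikbke-/- cells, and 440.3 and 396 in WT cells. Dcn, the proteoglycan decorin of many connective tissues, had another order: it read 12713 and 14062 in Tbk1-/- Ikbke-/- cells, 5185 and 5049 for Ikbke-/-, 588 and 557 for Tbk1-/- and 674 and 780.4 for WT cells. Prelp, a leucine-rich protein of cartilage, read 399 and 207 in Tbk1-/- Ikbke-/- cells and 1776 to 3679 on the other 6 arrays.

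A list of relatives from the same families as the cartilage genes was also examined. Of 9 tested, none was 2-fold or more from WT cells on both treatments in Ikbke-/- cells, and the median log2 ratio was -0.27. Over all 9626 genes 1.46% were higher and 1.81% lower, so nothing is read from that count. Sox6, another SOX gene, was listed with the chondrocyte regulators and is given below. Matn2, the broadly expressed matrilin, read 1140 and 1050.3 in Tbk1-/- Ikbke-/- cells, 327 and 336 for Ikbke-/-, 117 and 174 for Tbk1-/- and 273 and 335 for WT cells. Vcan, which encodes versican, the aggrecan relative of loose connective tissue, read 2755 and 2999 in Tbk1-/- Ikbke-/- cells, 1148 and 652 for Ikbke-/-, 538 and 669 for Tbk1-/- and 1359 and 806 for WT cells. The genotype highest for Matn2 and Vcan was thus the one lowest for Acan. Among the thrombospondins, Thbs1 and Thbs2 were lower in Tbk1-/- Ikbke-/- than in WT cells (mean log2 ratios -2.86 and -1.56), and Thbs2 was lower in Tbk1-/- cells (-2.94).

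**Figure D2:**
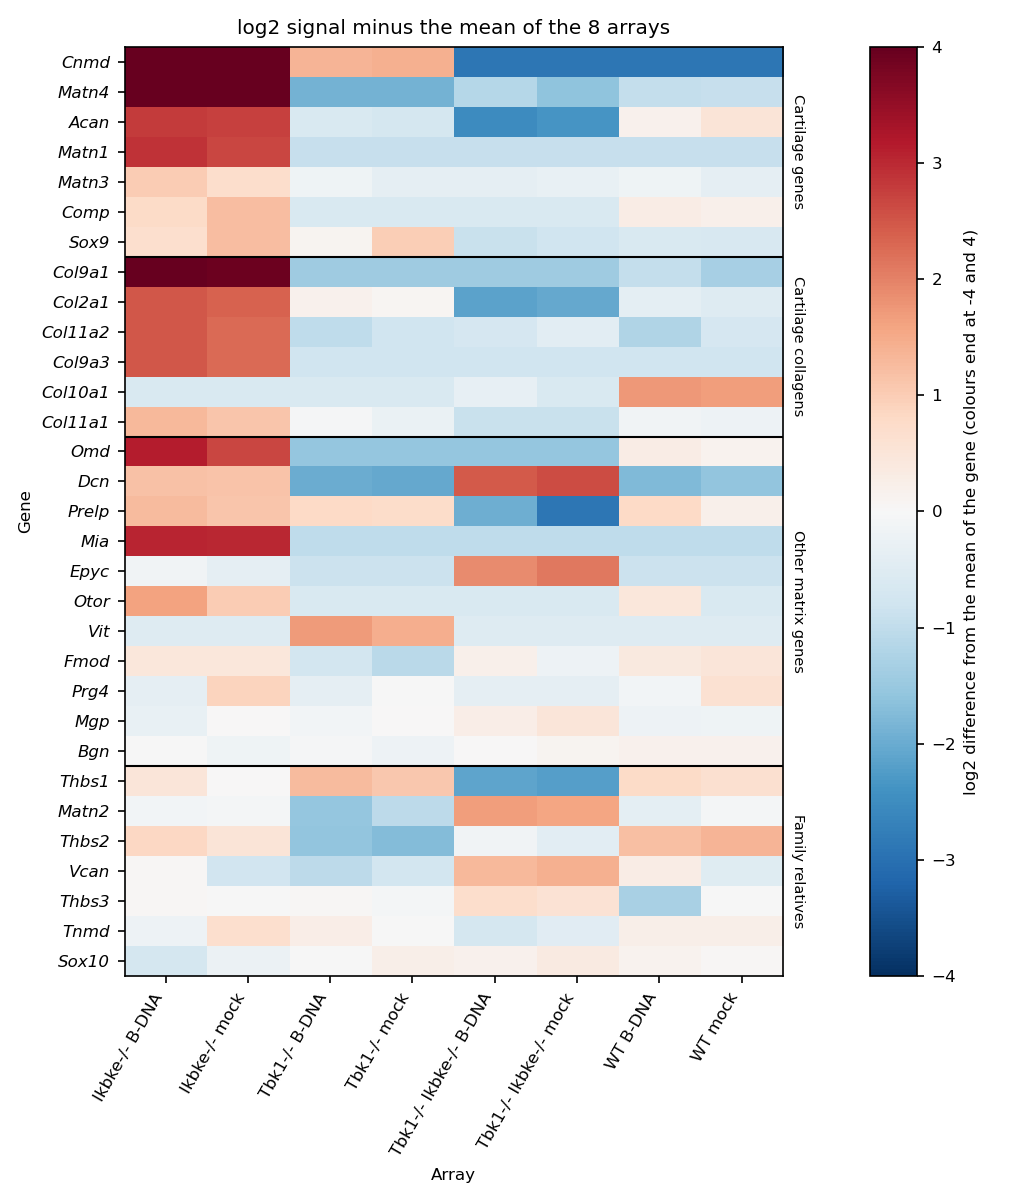
log2 signal of each gene minus its mean over the 8 arrays, with 1 column per array and 1 row per gene, for the measured cartilage genes (top block) and for genes of 3 related lists that reached 244. The 2 Ikbke-/- columns are high for Cnmd, Matn4, Acan, Matn1, Mia and the cartilage collagens except Col10a1, whereas Matn2 and Vcan are highest in Tbk1-/- Ikbke-/- cells. Values under the floor were set to it.

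Genes that regulate chondrocytes or build their proteoglycan chains were also examined. Of 11 tested chondrocyte regulators, none was higher or lower in Ikbke-/- than in WT cells on both treatments (median log2 ratio 0.26). Sox6, a partner of Sox9 in chondrocytes, came close: it read 451 and 238 in Ikbke-/- cells, the second just short of 244, and 6.91 to 80.4, under the floor, on the other 6 arrays. Trps1 and Bmp4 were lower in Tbk1-/- cells, with mean log2 ratios of -2.03 or lower (Trps1, under the floor in Tbk1-/- cells) and -1.19. Of 12 genes of sulfate supply and chondroitin chain synthesis, none differed in Ikbke-/- cells (median 0.28), while Papss2, which makes the sulfate donor, and Has2, a hyaluronan synthase, were lower in Tbk1-/- Ikbke-/- cells (-1.61 and -2.87). Of 11 matrix proteases and inhibitors, 2 (Adamts4 and Mmp3) were lower in Ikbke-/- than in WT cells, with a list median of -0.10. Adamts5, an enzyme that cuts aggrecan, read 4146 and 2512 in Tbk1-/- Ikbke-/- cells (B-DNA, then mock), against 368 and 424 in WT cells, and Adamts1 read 5109 and 4693 against 653 and 693. High signals of these proteases and low Acan signal thus fell in the same genotype, and no relation between them was tested.

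**Figure D3:**
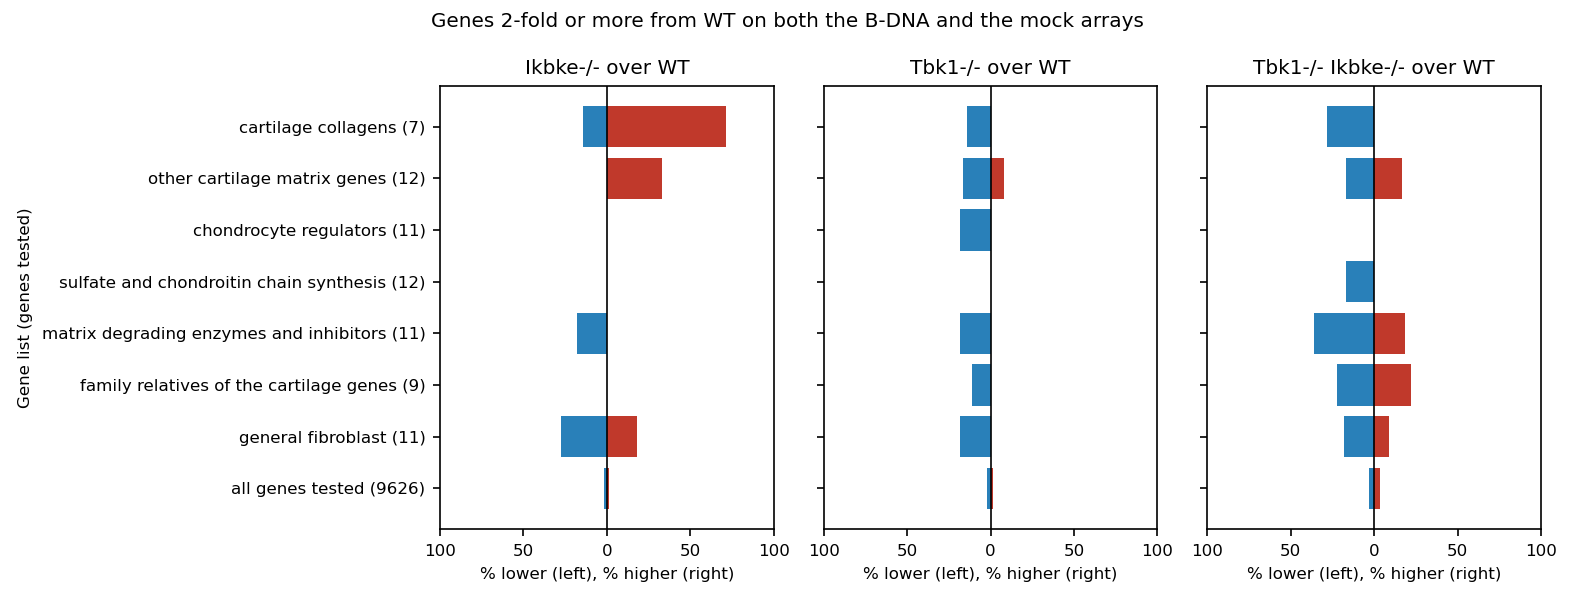
Share of the tested genes of each list (horizontal axis, in %) that were 2-fold or more lower (blue, left) or higher (red, right) than in WT cells on both the B-DNA and the mock arrays, for Ikbke-/-, Tbk1-/- and Tbk1-/- Ikbke-/- cells. The numbers of genes tested are in parentheses, and the lowest bars give all 9626 genes. In Ikbke-/- cells 5 of 7 cartilage collagens and 4 of 12 other matrix genes were higher, and none of 11 chondrocyte regulators.

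Markers of other lineages were examined because embryonic fibroblasts can be mixed. Of 11 general fibroblast markers, 10 or 11 reached 244 on every array, Ikbke-/- arrays included. In Ikbke-/- cells Pdgfra and Lum were higher and Thy1, Pdgfrb and S100a4 lower than in WT cells. Of 5 osteoblast markers with values, 3 passed the floor on 1 or more arrays, and at most 1 reached 244 on any array. The osteoblast markers Bglap and Spp1 were not among the genes with values. Of 3 tendon markers only Tnmd reached 244, on all 8 arrays and at 373 to 966. The other lists held 8 skeletal muscle, 6 epithelial, 5 endothelial, 5 neural and 4 adipocyte markers with values. Each had at most 2 genes at 244 on any array. For adipocyte markers these 2 were Fabp4 (555) and Pparg (321) on the Ikbke-/- mock array. On the Ikbke-/- B-DNA array they read 222 and 140. Hapln1 did not reach the floor in Ikbke-/- cells either, where Col2a1, Acan, Matn1 and Cnmd did, as given above.

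Genes other than the 8 with the most similar pattern were sought by Pearson correlation over the 8 arrays with the mean of the 7 measured cartilage genes, among 898 genes that reached 244 and spanned 2 or more on the log2 scale. The 10 most alike were Smoc2 (r = 0.99), Col11a1 (0.98), Lcn2, Efhd1, Mia, Col9a1, Col9a3, Pcp4, Egfl6 and Col2a1 (0.97 to 0.96). Smoc2, a secreted calcium-binding matrix protein, read 2963 and 2469 in Ikbke-/- cells (B-DNA, then mock) and 515 to 719.6 on the other 6 arrays. Efhd1, a mitochondrial calcium-binding protein, read 2078 and 1597 in Ikbke-/- cells and 43.3 to 141 on the other 6. The 5 most opposite genes were Nnt, Rrm2, Lama2, Pclaf and Birc5 (r from -0.99 to -0.97). Rrm2, Pclaf and Birc5 are genes of DNA synthesis and cell division. Rrm2 read 328 and 424 in Ikbke-/- cells, 1090.1 and 1047 for Tbk1-/- cells, 1596 and 1456 for Tbk1-/- Ikbke-/- cells, and 1173 and 1441 for WT cells. The arrays share genotype in pairs, so that r describes little more than the order of 4 genotypes.

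**Figure D4:**
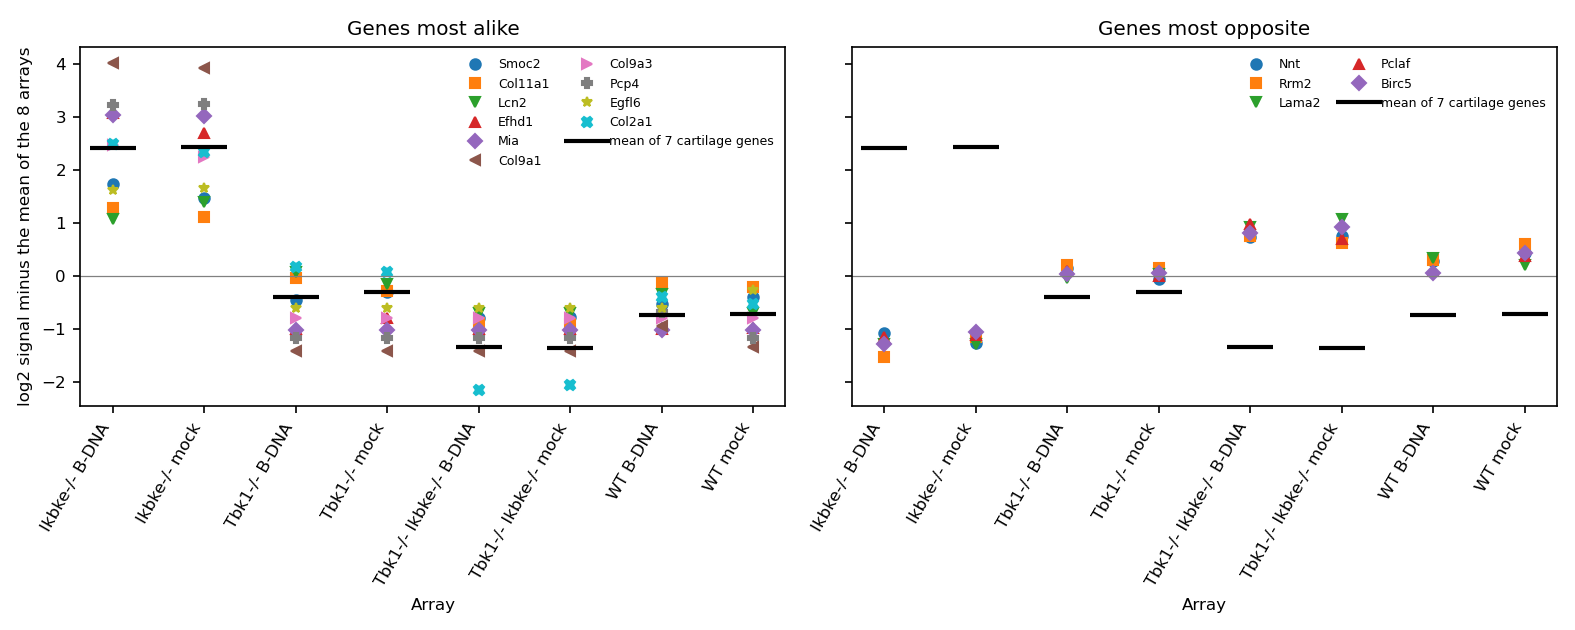
log2 signal minus the mean of the 8 arrays (vertical axis) on each array for the 10 genes most alike to the cartilage genes (left) and the 5 most opposite (right), with the mean of the 7 measured cartilage genes as black bars. That mean is 2.42 and 2.43 on the Ikbke-/- arrays and lowest on the Tbk1-/- Ikbke-/- arrays, at -1.34 and -1.36. The opposite genes, among them Rrm2 and Birc5, are lowest on the Ikbke-/- arrays.

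A ratio of B-DNA over mock exists only where a gene reached the floor on 1 or both arrays of a genotype, which held for 7 of the 8 genes in Ikbke-/- cells, 4 in Tbk1-/- cells, 4 in Tbk1-/- Ikbke-/- cells and 5 in WT cells. None of these ratios reached 2-fold, against 5.19% of all genes in Ikbke-/- cells, 0.696% in Tbk1-/- cells, 1.29% in Tbk1-/- Ikbke-/- cells and 5.16% in WT cells. The log2 ratio of Cnmd was 0.04 for Ikbke-/- and -0.05 for Tbk1-/- cells. That of Acan was 0.07 for Ikbke-/-, 0.09 for Tbk1-/-, -0.16 or lower for Tbk1-/- Ikbke-/- and -0.35 for WT cells. Matn4 (0.30) and Matn1 (0.22) were slightly higher after B-DNA in Ikbke-/- cells, and Comp was lower there (-0.49). This contrast lies within genotypes and was not used to choose the genes, so it was tested across the 4 pairs of arrays.

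The average response to B-DNA was fitted with genotype as a block by limma, over 9626 genes. No cartilage gene passed the test, and 0% of all genes did (761 genes had an unadjusted p under 0.05). The fit has no term for a response that differs between genotypes, so such differences add to its residual. As it called no gene at all, a cartilage gene that did not pass is not shown to be without a response. Sox9 had the largest estimate among the 7 tested cartilage genes, -0.38 (SE 0.18, 95% interval -0.83 to 0.08, adjusted p = 0.62 by limma). The other 6 lay between -0.10 and 0.18, with adjusted p from 0.69 to 0.998 by limma, and their 95% intervals all lay between -0.42 and 0.49. Cnmd, Matn1, Comp and Matn4 lay under the floor on both arrays of 1 or more genotypes, where the ratio was set to 0, so their intervals are too narrow. Matn3 had 1 value under the floor in the Tbk1-/-, the Tbk1-/- Ikbke-/- and the WT pair, and Acan in the Tbk1-/- Ikbke-/- pair. Those ratios are limits, so the Matn3 and Acan intervals rest partly on the floor.

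Sox9 was lower after B-DNA in Ikbke-/- cells (log2 ratio -0.56) and in Tbk1-/- cells (-0.88), and close to its mock level in Tbk1-/- Ikbke-/- (-0.10) and WT cells (0.03). The probe sets of this gene disagreed on the last 2 genotypes. The other probe set gave -0.54 in Ikbke-/-, -0.65 in Tbk1-/- and -0.54 in Tbk1-/- Ikbke-/- cells, and in WT cells it read 117 after B-DNA, under the floor, against 210.4 after mock transfection. With the mean of both probe sets the average was -0.50 (SE 0.10, unadjusted p = 0.0039, adjusted p = 0.59 by limma), which does not pass either.

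**Figure D5:**
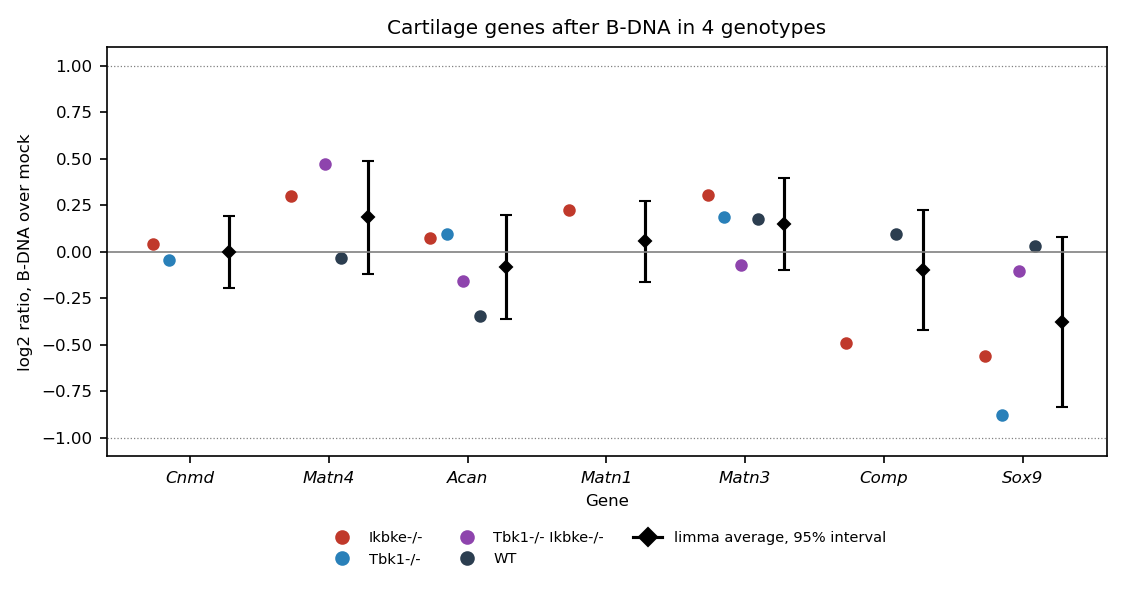
log2 ratio of B-DNA over mock (vertical axis) for the 7 cartilage genes tested, with 1 circle per genotype and, as a black diamond, the limma average over 4 genotypes with its 95% interval. Circles are left out where both arrays lay under the floor, and a ratio with 1 such value is a limit. No circle reaches the dotted lines of a 2-fold change, and every interval includes 0.

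Whether the response depended on Tbk1 or on Ikbke was tested in 1 fit with both interactions. For Tbk1, 2.07% of 9626 genes passed (199 genes), and none of the 7 cartilage genes. Only Acan, Matn3 and Sox9 had a ratio in every genotype. The other 4 entered with ratios set to 0 by the floor, so their fits show nothing about dependence and are not given. Matn3 had a value under the floor in every pair but that of Ikbke-/- cells, and Acan in that of Tbk1-/- Ikbke-/- cells. Those ratios are limits, so the Matn3 and Acan differences below rest partly on the floor. For Tbk1 the differences in log2 ratio were 0.11 (Acan), -0.18 (Matn3) and -0.23 (Sox9), with adjusted p from 0.76 to 0.89 by limma. For Ikbke, 0% of genes passed (435 had an unadjusted p under 0.05), and the differences were 0.08 (Acan), -0.07 (Matn3) and 0.09 (Sox9), each with an adjusted p of 0.999 by limma. The 95% interval of the Sox9 difference for Tbk1, -1.09 to 0.63, still includes a 2-fold change.

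Some genes around the cartilage genes did pass for Tbk1. Has2 and Trps1 had lower log2 ratios in the genotypes without Tbk1, and Pdgfra, a growth factor receptor of mesenchymal cells, a higher one. Mmp13, a collagenase, passed as lower, but lay under the floor on every array without Tbk1. For Has2 the log2 ratios were -0.59 in Tbk1-/- and -0.21 in Tbk1-/- Ikbke-/- cells, against 1.96 in Ikbke-/- and 1.40 in WT cells (difference -2.08, SE 0.23, adjusted p = 0.0094 by limma). For Trps1, a repressor active in growth plate cartilage, the difference was -1.63 (SE 0.23, adjusted p = 0.023 by limma, 2 values under the floor). Those 2 are the Tbk1-/- arrays, so without Tbk1 only Tbk1-/- Ikbke-/- cells gave a Trps1 ratio (-0.50). Mmp13 gave -1.74 (adjusted p = 0.046 by limma, 5 values under the floor) and Pdgfra 1.499 (adjusted p = 0.042 by limma). The Mmp13 ratios without Tbk1 were set to 0 by the floor, so no Mmp13 response was measured there and its fit shows nothing about dependence. These 4 are 1 of 11 chondrocyte regulators, 1 of 12 chain synthesis genes, 1 of 11 proteases and inhibitors and 1 of 11 fibroblast markers. No cartilage collagen, other cartilage matrix gene or family relative passed. Of all 9626 genes 2.07% passed, and nothing is read from these list counts. Without the filter on low genes the test called 0 genes in place of 199.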

How the data were processed

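The deposited values are linear intensity (signal) of each probe set, which the authors made with MAS5, per the submitters' processing notes. The design text also names GeneSpring and another array type than the one whose probe set names the values carry. The scaling target was not given in the sources used here. After 64 controls were removed, 22626 of 22690 probe sets remained. Of these, 20380 carried a single gene symbol, 691 more than 1, and 1555 had no symbol. Of the 20380, 20351 matched RefSeq's GRCm38.p6 gene table, from which current symbols were taken. For a gene with several probe sets, the brightest on average was used.

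Each array was scaled to a 2% trimmed mean of 500, floored at the 40th percentile (122) and put on the log2 scale. Fits used limma (3.58.1, R 4.3.3; 2-sided moderated tests, Benjamini-Hochberg adjustment over 9626 genes, threshold 0.05), with 3 residual degrees of freedom for the average response and 1 for the Tbk1 and Ikbke dependence, and were tested on simulated data. With 1 array per genotype and treatment, the p-values reflect only how these arrays vary, which may be technical, and the number of arrays limits the precision. The cartilage genes, gene lists and tests were chosen with earlier results of these data known. From each list, up to 4 genes with the widest range over the arrays and any gene past a limma threshold were named by rule. Others were named after their values were seen, because they make up a small count. Alternatives were other scalings and floors, a pseudocount of 16 without a floor, the mean of probe sets, no filter on low genes, 1 treatment only, 1 interaction only, and leaving out each genotype.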

Additional observations from a re-analysis of the deposited data

How the results depend on the processing

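In Ikbke-/- cells 5 to 7 of the 8 cartilage genes were higher than in WT cells under every scaling, floor, pseudocount, probe set rule and choice of arrays tried. The 5 came from a floor at the 50th percentile, which dropped Matn3, and the 7 from the mock arrays only, which added Comp. In Tbk1-/- cells 2 genes in place of 1 were higher without further scaling, with the mean of probe sets and on the mock arrays only, and Sox9 was the added one. With a floor at the 30th percentile 2 genes (Matn4 and Comp) were lower in Tbk1-/- cells and 2 (Acan and Comp) in Tbk1-/- Ikbke-/- cells, and on the mock arrays only 1 gene (Acan) was lower in Tbk1-/- cells. After B-DNA, 1 gene (Sox9, in Tbk1-/- cells) differed 2-fold without further scaling, a setting that moves the median log2 ratio of all genes by -0.10 in that pair, by -0.38 in WT cells and by -0.59 between the Tbk1-/- Ikbke-/- and WT mock arrays. The limma test of Tbk1 dependence called 199 genes, 104 without the Ikbke term, 69 with a pseudocount, 97 with the mean of probe sets and 0 without the filter on low genes. The cause of these changes was not tested. The average response called 0 genes under every alternative tried, leaving out each genotype included (0 to 0 genes). The Ikbke dependence called 0 genes under other scalings, floors, pseudocount, probe set rule and filter and without the Tbk1 term, and no genotype was left out of it. No cartilage gene passed in any limma fit (lowest adjusted p = 0.24, for the Tbk1 dependence). The average response was paired by genotype, and the labels give no replicate numbers for a further block. Values near the floor, those of Matn3 and Comp above all, limit what can be seen.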
